A study of Mus musculus with 9 samples.

Results

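Mesothelial nuclei of mouse epididymal adipose tissue (epiAT) were taken from 9 single-nucleus RNA libraries by their own transcripts. A nucleus was kept when its barcode held 500 to 3000 genes and at most 40000 UMIs (transcript counts), at least 1 UMI in 3 or more of 8 mesothelial genes (Msln, Upk3b, Wt1, Upk1b, Muc16, Lrrn4, Gpm6a, Bnc1) and UMIs in at most 1 of 6 genes of other cell types (Pdgfra, Adgre1, Mctp1, Plin4, Cdh5, Ptprb). This rule selected 3637 of the 76356 nuclei within the gene and UMI limits. The 9 libraries came from male C57BL/6J mice, which the study bought as diet-induced obesity mice and their controls, and each library pooled the nuclei of 5 mice of a single diet group. The chow groups C, CC and CCC were 18, 26 and 39 weeks old. Group H was 18 weeks old after 12 weeks of high-fat diet (HFD, 60% of energy from fat, against 10% in the control diet), and HH was 31 weeks old after 25 weeks of HFD. The weight loss (WL) group HC had 12 weeks of HFD and then 8 weeks of chow and was 26 weeks old. HHC had 25 weeks of HFD and then 8 weeks of chow and was 39 weeks old. CCH had 4 weeks of HFD for the only time and was 30 weeks old. HCH had 12 weeks of HFD, 8 weeks of chow and 4 further weeks of HFD, also at 30 weeks. No group had more than 1 library, so libraries of a diet state (3 chow, 4 on HFD when sampled, 2 WL) stood as replicates. They differed in age and in the length of the diet. Per the methods, all groups of the WL period received another chow than the 10% control diet. By age, CC and CCC were sampled on that chow and C on the 10% diet. The p-values measure the spread between such pools.

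The mesothelium is the single sheet of flat epithelial cells that lines the peritoneal cavity and covers the visceral fat pads, epididymal fat included. Its cells derive from mesoderm, carry Wt1 and keratins, hold together by cell junctions and secrete hyaluronan, lubricating glycoproteins and complement components into the peritoneal fluid. They can take on mesenchymal features under TGF-beta, and lineage studies have discussed them as a source of visceral stromal cells.

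The detection of the rule genes is given first, as a description that the selection fixes, and genes that the rule did not use follow. Gpm6a, a neuronal-type membrane glycoprotein also found in mesothelium, had a UMI in 90.2% to 95.4% of the selected nuclei and in 6.0% to 18.0% of the other nuclei of the same libraries. Muc16, the mucin that carries the CA125 epitope, was detected in 67.6% to 85.6% of selected and 0.9% to 5.9% of other nuclei. Wt1 was detected in 71.8% to 85.4% and 5.6% to 16.0%, Upk3b, a uroplakin, in 27.9% to 62.4% and 1.0% to 5.9%, and Bnc1, a zinc-finger factor, in 24.1% to 40.6% and 0.3% to 1.3%. Msln, which encodes mesothelin, was the least even of the markers, with UMIs in 9.1% (HC) to 47.3% (H) of selected nuclei and in 0.3% to 3.8% of other nuclei. The median depth per library was 2118 to 3464 UMIs in the selected nuclei and 2056 to 3267 in the others. As the sum over all selected nuclei of a library, in CPM (UMI counts scaled to an equal total in every library), Msln was at 211, 67.9 and 86.6 in C, CC and CCC, at 320, 217, 212 and 233 in H, HH, CCH and HCH and at 36.7 and 54.7 in HC and HHC. These values are a description, since the nuclei were selected on UMIs of these markers. Between 30.98% (HH) and 67.95% (CC) of the selected nuclei held UMIs of an exclusion gene. Plin4 was detected in 16.4% (C) to 41.03% (CC) on chow and in 2.849%, 3.856%, 22.81% and 12.32% in H, HH, CCH and HCH. Adgre1 was detected in at most 1.455% (C) on chow and in 17.38%, 12.47%, 1.488% and 11.09% in these HFD libraries. The selected nuclei thus differed between libraries in such RNA, and its part was not tested.

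The 20 genes below, all outside the rule, stood highest over the other nuclei in every library, by the lowest library ratio among genes of at least 50 CPM. They were Gabra4, Rbfox1, Spock3, Tmem132d, Fras1, Il1rapl1, Tmem151a, Isl1, Cdh11, Mroh2a, Nxph1, Crb2, Matn4, Stk26, Ptprq, Pcnx2, Pkhd1l1, Wdr17, Chst4 and Nlgn1. Rbfox1, an RNA splicing factor, was 17.8 to 155-fold higher in mesothelial than in other nuclei, Fras1, a basement membrane adhesion protein, 17.0 to 96.3-fold, Isl1, a LIM homeodomain factor, 15.5 to 184-fold and Cdh11, a mesenchymal cadherin, 15.3 to 27.0-fold. Several of them encode synaptic adhesion or receptor proteins, among them Il1rapl1 at 17.0 to 99.7-fold, Nxph1 at 14.5 to 102-fold, Nlgn1 at 11.9 to 40.7-fold and Gabra4 at 22.1 to 93.8-fold. Of 17 further mesothelial genes that were listed for this purpose, Krt19 averaged 7.66 CPM in other nuclei and lay between 61.0 and 166 CPM in the mesothelial ones, Nkain4 averaged 14.1 and lay between 188 and 356, and Rspo1, a WNT enhancer, averaged 25.3 and lay between 228 and 444. The calretinin gene Calb2, a marker of mesothelium in pathology, was at 0 in all 9 libraries. Of the junction genes, Tjp1 lay between 173 and 216 CPM, F11r between 182 and 267 and Cgn between 51.9 and 152. Ocln did not exceed 4.32 CPM and Cdh1 (E-cadherin) 9.66 CPM.

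**Figure D1:**
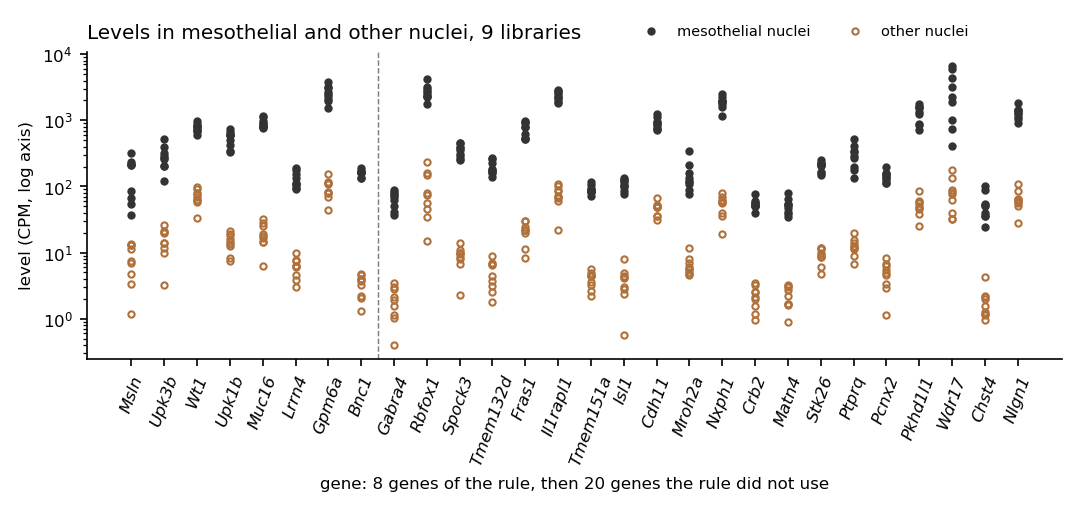
Levels in CPM on a log axis of the 8 rule genes (left of the dashed line) and of the 20 genes with the highest lowest-library ratio to other nuclei. Filled points are mesothelial nuclei and open points all other nuclei, 1 point for each of 9 libraries, and for all 28 genes every filled point lies above every open point.

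Nuclei just inside and just outside the rule differed in degree. Between 17.7% and 37.8% of the selected nuclei of a library had UMIs in exactly 3 of the 8 markers. For Il1rapl1, which the rule did not use, the median over libraries was 2248 CPM in all selected nuclei, 1820 in those with exactly 3 markers, 472 in nuclei with exactly 2 markers and 71.0 in other nuclei. Rspo1 went from 349 and 289 to 80.0 and 23.8 over the same series, and Fras1 from 790 and 451 to 95.1 and 22.2. The nuclei with 2 markers, which were left out, thus lay between mesothelial and other nuclei in these genes.

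The libraries differed in several measures that run across all their nuclei, and these values bear on every comparison below. The summed UMIs of mesothelial nuclei, without mitochondrial genes and Malat1, ran from 334971 (CCC) to 2037577 (HH). The labels put C, H, HH, CCH and HCH in a library set named S075 and CC, CCC, HC and HHC in a set named S019, so that HFD libraries and WL libraries never shared a set. The S019 libraries are those of groups sampled on the chow of the WL period. Set and kind of chow thus cannot be told apart between C and the other chow libraries. Between 6 and 45 barcodes were shared by a pair of libraries, and 3 mesothelial barcodes recurred in another library. Transcripts of 84 ribosomal protein genes summed to 3952, 4355 and 4735 CPM in mesothelial nuclei of C, CC and CCC, to 12170, 12420, 3547 and 12170 in H, HH, CCH and HCH, and to 2957 and 5996 in HC and HHC, with 2934 to 10770 CPM in the other nuclei of the HFD libraries. Mitochondrial UMIs were 0.653% to 0.826% of mesothelial UMIs on chow, 1.12% to 1.80% on HFD and 0.573% to 0.700% after WL. The 15 macrophage markers summed to 744 to 1195 CPM in mesothelial nuclei on chow, 863 (CCH) to 4237 (H) on HFD and 1902 to 5221 after WL, against 2119 to 2416, 3357 to 12470 and 4547 to 11000 in other nuclei, and 13 of the 15 were above 0 in every library. The 10 adipocyte markers ran the other way, at 2120 to 5399, 508 to 1785 and 1213 to 1519 CPM in mesothelial nuclei. The 10 progenitor markers summed to 3274 to 4418, 4725 to 7932 and 3706 to 4644 CPM, in each library above the sum in its other nuclei. The part of such RNA in the results that follow was not tested.

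**Figure D2:**
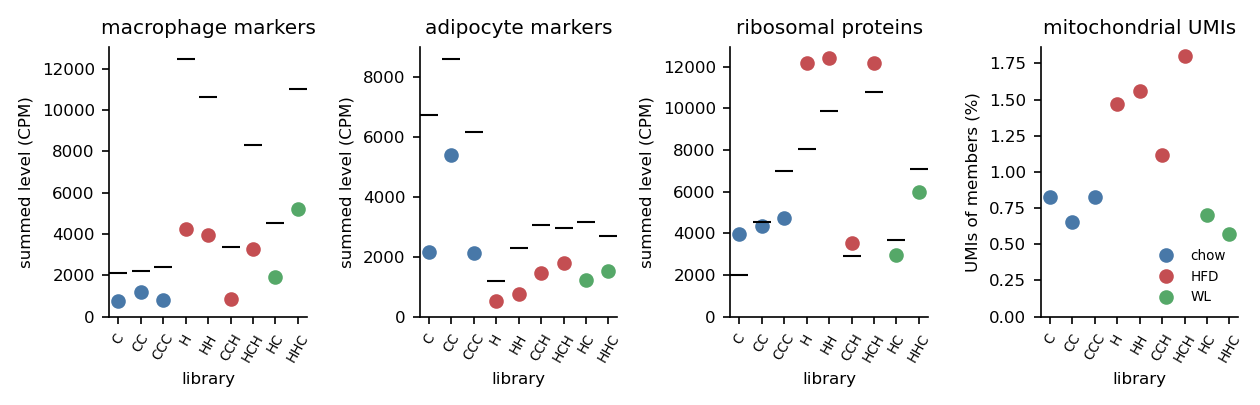
Summed CPM of macrophage, adipocyte and ribosomal protein genes, and the percentage of UMIs from mitochondrial genes, in each library. Coloured points are mesothelial nuclei and black dashes the other nuclei of that library. H, HH and HCH stand high for ribosomal and mitochondrial transcripts, HHC, H, HH and HCH for macrophage transcripts (5221 CPM in HHC), and CCH lies with chow for the ribosomal and macrophage genes.

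The share of mesothelial nuclei in the chow libraries overlapped that on HFD and after WL. It was 6.49% of nuclei in C (exact Clopper-Pearson 95% interval 6.05% to 6.95%), 3.76% in CC and 2.17% in CCC, 3.57% in H, 5.84% in HH, 8.30% in CCH (7.68% to 8.96%) and 4.94% in HCH, and 3.06% in HC and 2.35% in HHC. Both WL libraries lay below all 4 HFD libraries, which come from the other library set, so that state and set cannot be told apart. The intervals cover counting error only. The HFD libraries averaged 5.66% ± 1.99 (SD, n = 4) and the chow libraries 4.14% ± 2.19 (SD, n = 3), a difference of 1.52 percentage points with an exact two-sided permutation p of 0.457, where these numbers allow no p below 0.0571. The difference was 0.535 points without CCC, 0.642 without CCH and 2.697 without C. The WL libraries averaged 2.71% ± 0.504 (SD, n = 2), 1.43 points below chow, with an exact permutation p of 0.6 and a smallest possible p of 0.2. This difference was -0.258 points without C and -2.42 without CCC. Macrophage nuclei change in number with diet and enter the denominator. With nuclei that held Adgre1 or Mctp1 UMIs left out, the shares were 8.35%, 5.36% and 3.11% on chow, 7.76%, 11.2%, 12.2% and 9.44% on HFD and 4.62% and 4.67% after WL. The HFD libraries then lay 4.54 points above chow, with an exact permutation p of 0.114, and C still exceeded H. WL again lay below every HFD library. Libraries of set S019 had 2.17% to 3.76% and those of set S075 3.57% to 8.30%. Within S075 the single chow library C had, of all nuclei, a larger share than H, HH and HCH and a smaller share than CCH. HH was above C with at least 4 rule markers (4.37% against 4.34%) and without any exclusion gene (4.03% against 3.80%). Both HH and HCH were above C with Adgre1 or Mctp1 nuclei left out.

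**Figure D3:**
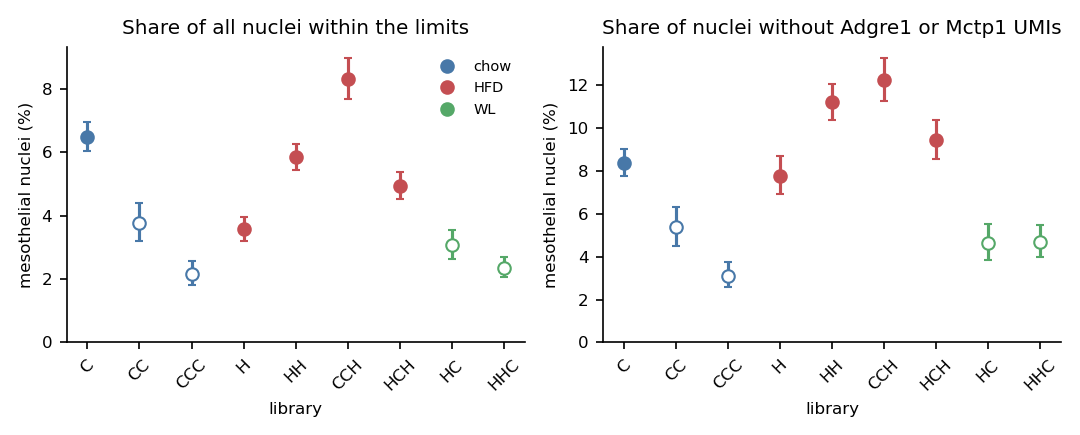
Mesothelial nuclei as a percentage of all nuclei within the limits (left) and of nuclei without Adgre1 or Mctp1 UMIs (right), by library, with exact 95% intervals for counting error. Filled points are libraries of set S075 and open points of set S019. On the left the chow libraries run from 2.17% to 6.49% and overlap the HFD libraries at 3.57% to 8.30%.

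Expression in mesothelial nuclei was first compared over the 3 states, with the counts of each library summed over its mesothelial nuclei. Of 11420 genes tested, 10 differed between the 4 HFD and the 3 chow libraries at an adjusted p under 0.05 (0.0876%), and 2202 had an unadjusted p under 0.05. Mfap5, a microfibril protein, was the only gene that rose (0.00876%), from 50.6, 37.95 and 59.7 CPM on chow to 189, 155, 119 and 178 in H, HH, CCH and HCH (log2 fold change 1.64, adjusted p = 0.0427). Its mean level in other nuclei, 114 CPM, was above that in mesothelial nuclei. The 9 genes that fell (0.0788%) were Pkhd1, Lipe, Cavin1, Sh3pxd2a, Sybu, Nrg4, St6galnac5, Aoah and the unnamed gene Gm19951. Cavin1, a coat protein of caveolae, was at 251, 350 and 209 CPM on chow, 102, 93.3, 115 and 120 on HFD and 106 and 96.8 after WL, and its log2 fold change on HFD was -1.40 (adjusted p = 0.0464). All chow libraries lay above all others for Cavin1, which was the only call (0.0297%) among the 3368 genes of at least 20 CPM and at least the mean level of other nuclei. Its level in other nuclei also ranged from 95.3 to 307 CPM on chow and from 29.0 to 92.6 on HFD. Gm19951 was at 216 to 523 CPM in the 4 libraries of set S019 and at 11.3 to 43.2 in the 5 of set S075. The other 7 had lower levels in mesothelial than in other nuclei on average, Lipe, the hormone-sensitive lipase of adipocytes, being at 119 to 326 CPM on chow and 24.9 to 59.96 on HFD beside the fall of adipocyte markers given above. No gene passed when the library set was a term of the fit, and none when only nuclei with at least 4 rule markers entered (0 in both).

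CCH, with 4 weeks of HFD, lay near chow for many genes that were high in H and HH. Taking H and HH alone as HFD, with CCH and HCH each as a state of its own, gave 1319 of 12423 genes past the threshold between long HFD and chow (10.6%), of which 859 were higher (6.91%) and 460 lower (3.7%). All 10 genes of the first comparison were among them, and of the 1295 tested in both, 1293 had the same direction. Both fits hold H, HH and the chow libraries, so the shared direction was largely fixed in advance. Among the 3368 genes of at least 20 CPM whose mean level in mesothelial nuclei was at least that in other nuclei, 295 passed (8.76%), 260 of them higher (7.72%) and 35 lower (1.04%). With the library set as a further term 595 genes passed, 547 of them among the 1319, and leaving out HH lowered the count to 323. Of the 55 genes named for this comparison 28 passed with that term. Chow was the only diet state with libraries in both sets. With the set as a term, the HFD change is therefore that of H and HH against C, a single chow library. Values given below with that term share this limit, and the fit over all HFD libraries with that term rests on C as well. The fit with H and HH as HFD had been listed as an alternative, and the genes described from it below were chosen after their values were seen. All log2 fold changes (± SE) and adjusted p-values from here to the comparison of CCH with HCH are for H and HH against C, CC and CCC unless another fit is named.

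Most listed complement genes rose on long HFD. Complement is the cascade of plasma proteins that tags and lyses targets, and 8 of 13 listed genes tested were higher and 1 lower, beside 6.91% higher and 3.7% lower of all genes, with a median log2 fold change of 1.14 against 0.0157 over all genes tested. C3, the central component that all pathways cleave, was at 678, 218 and 302 CPM in C, CC and CCC, at 1648 and 1931 in H and HH, at 405 in CCH and 1178 in HCH and at 341 and 654 in HC and HHC. H, HH and HCH lay above every chow library and CCH among them (log2 fold change 2.08 ± 0.36, adjusted p = 0.00262, and 1.36 with adjusted p = 0.0344 with library set as a term). Over all 4 HFD libraries C3 did not pass (1.60, adjusted p = 0.105). Cfb, the protease of the alternative pathway, was at 93.8, 47.9 and 68.7 CPM on chow, 271, 284, 68.5 and 161 in H, HH, CCH and HCH and 41.0 and 103 after WL (1.87 ± 0.30, adjusted p = 0.00182). C1ra, a protease of the classical pathway, was at 77.9 to 148 CPM on chow and 233 and 283 in H and HH (1.14 ± 0.27, adjusted p = 0.0171, but 0.183 with library set as a term).

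An inhibitor of the cascade rose as well. Serping1, the C1 inhibitor, was at 156, 87.9 and 161 CPM on chow, 500, 557, 173 and 430 on HFD and 88.5 and 227 after WL (1.91 ± 0.30, adjusted p = 0.00158). H, HH and HCH were above all chow libraries for Serping1, and CCH, at 173 CPM, was above them by little. C4b, C1s1, Cd55 and Cd59a did not pass, with log2 fold changes of 1.03, 0.78, 0.24 and -0.39. Among the other genes of the list that passed were C1qa, C1qb and C1qc, which macrophages are known to make, and Cfd, an adipocyte product that was the gene that fell. Their counts moved with the macrophage and adipocyte markers above.

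**Figure D4:**
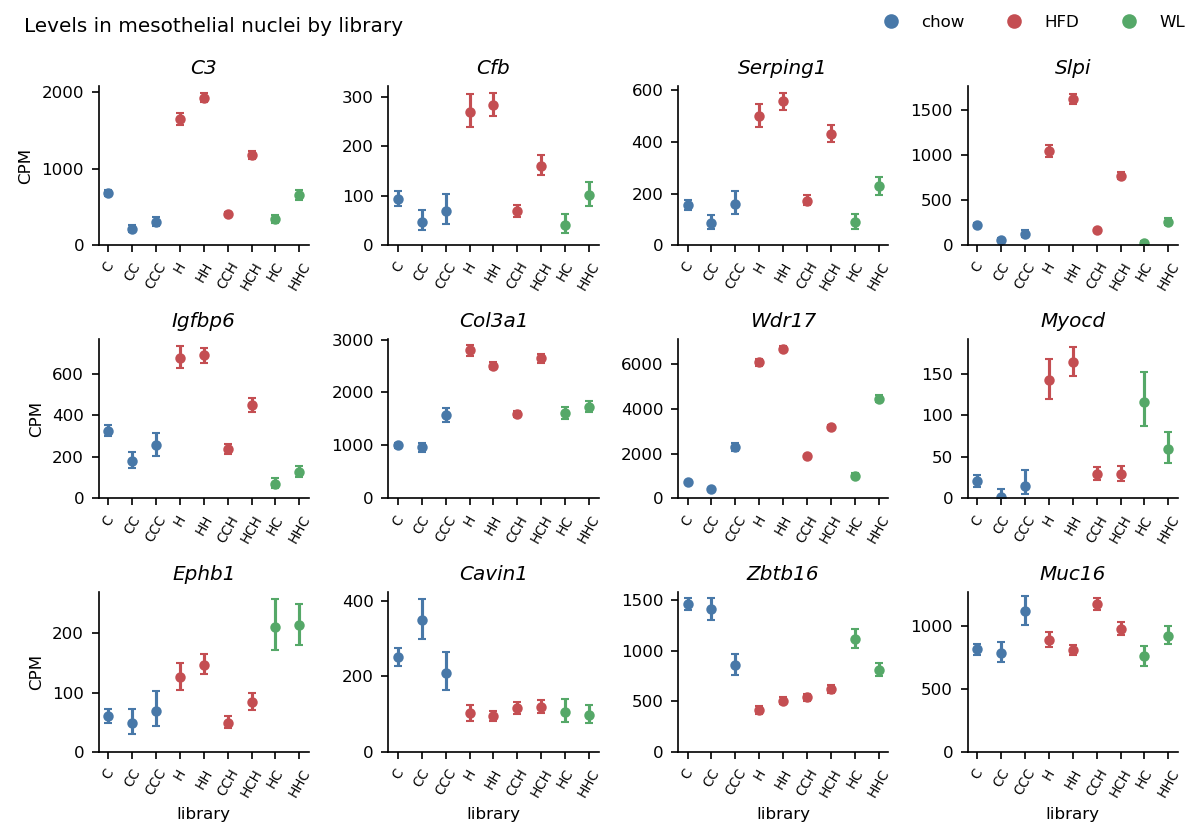
CPM of 12 genes in mesothelial nuclei by library, with exact Poisson 95% intervals for counting error, coloured by diet state. C3, Cfb, Serping1, Slpi and Igfbp6 are high in H, HH and HCH and near chow in CCH, Ephb1 is highest in HC and HHC, Cavin1 is highest on chow, and Muc16, on which nuclei were selected, lies between 758 and 1176 CPM as a description.

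Slpi, a further secreted defence protein, changed in the same libraries. It encodes secretory leukocyte protease inhibitor, which blocks neutrophil elastase at epithelial surfaces. It was at 226, 55.9 and 122 CPM in C, CC and CCC, at 1045 and 1630 in H and HH, at 165 in CCH and 774 in HCH and at 30.2 and 258 in HC and HHC (log2 fold change 3.19 ± 0.55, adjusted p = 0.00262). With library set as a term it did not pass (2.53, adjusted p = 0.0727). Slpi also rose in the other nuclei of these libraries, from 9.18 to 22.7 CPM on chow to 70.4 and 308 in H and HH, and in every library it was at least 4.06-fold higher in mesothelial than in other nuclei. C3 was at least 2.21-fold higher.

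Of the 23 chemokine, cytokine and adhesion genes listed, 16 were tested, 4 rose and 1 fell, beside 6.91% and 3.7% of all genes. Lcn2, an iron-scavenging acute-phase protein, was at 12.0 to 17.0 CPM on chow, 69.5 and 74.6 in H and HH, 20.9 and 40.3 in CCH and HCH and 2.16 and 11.2 after WL (2.17 ± 0.33, adjusted p = 0.00148). Saa3, an acute-phase apolipoprotein, was low, at 0 to 3.41 CPM on chow and 11.4 and 62.8 in H and HH (3.81, adjusted p = 0.00612, and 0.0637 with library set as a term). Ccl2 and Cxcl13 rose from at most 6.82 CPM, and Il34, a ligand of the CSF1 receptor, fell. Il33, an alarmin, was at 99.99 to 185 CPM on chow and 233 and 242 in H and HH and did not pass (0.66, adjusted p = 0.121).

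The start regions of C3 and Slpi are shown because these 2 secreted proteins carry the pattern of H, HH and HCH above CCH. The pattern is not particular to them, since the summed ribosomal protein and macrophage transcripts given above have it too. C3 lies at chr17:57203970-57228136 and Slpi at chr2:164354070-164389095 on GRCm38, both on the minus strand. The RefSeq start of Slpi used here lies inside that annotated span. The 250 bases before the RefSeq transcript starts (GRCm38.p6, written 5′ to 3′ on the coding strand) were searched on both strands for TTGCNNAA, a short form of the site of C/EBP factors, which drive acute-phase genes. Matches are in capitals. They are at chr17:57228137-57228386 and chr2:164356508-164356757.
C3: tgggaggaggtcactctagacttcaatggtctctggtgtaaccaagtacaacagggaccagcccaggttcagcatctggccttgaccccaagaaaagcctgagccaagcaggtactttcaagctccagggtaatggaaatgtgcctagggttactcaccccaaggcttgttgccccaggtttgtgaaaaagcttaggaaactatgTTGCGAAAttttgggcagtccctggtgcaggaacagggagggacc
Slpi: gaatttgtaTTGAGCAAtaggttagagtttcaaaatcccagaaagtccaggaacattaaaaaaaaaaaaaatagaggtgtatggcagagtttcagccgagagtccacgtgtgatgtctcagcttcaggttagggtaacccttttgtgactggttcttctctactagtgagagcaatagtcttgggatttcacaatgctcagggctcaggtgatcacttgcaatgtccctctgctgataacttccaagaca
The match in C3 begins 45 bases before the start, and that in Slpi 241 bases before it on the opposite strand. The search covered 5 chosen genes that rose, of which C3, Lcn2, Saa3 and Slpi have a match and C1ra has none, and 9.56% of 32851 promoters of that length hold one. Cfb, Serping1 and the other genes above were not searched, so no share is drawn from these few. A form of the NF-kB site searched in the same way was in none of the 5 and in 0.356% of promoters. Such matches are letters in a window and were not measured as bound.

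Of 16 further listed mesothelial genes tested, 5 rose and none fell, beside 6.91% and 3.7% of all genes, and 2 of these were C3 and Slpi. The median log2 fold change was 0.53. Krt19, a simple-epithelium keratin, was at 89.2, 61.9 and 108 CPM on chow and 166 and 161 in H and HH (0.88 ± 0.24, adjusted p = 0.0321), Nkain4 at 195 to 210 and at 356 and 341 (0.71, adjusted p = 0.0280), and Efemp1, a matrix fibulin, at 1271 to 1708 and at 2181 and 2408 (0.64, adjusted p = 0.0490). Krt7, Krt18, Pdpn, Gata6, Ezr and Aldh1a2 did not pass, with log2 fold changes of 0.10, 0.67, 0.54, 0.18, 0.14 and 0.33. Wdr17, a WD-repeat protein and among the 20 genes highest over other nuclei, changed most of these. It was at 728, 408 and 2290 CPM in C, CC and CCC, at 6063 and 6659 in H and HH, at 1882 and 3190 in CCH and HCH and at 1017 and 4445 in HC and HHC (2.46 ± 0.56, adjusted p = 0.0130). The oldest chow library and the oldest WL library were above their younger counterparts for Wdr17. Mroh2a, Chst4, a sulfotransferase of mucin-type glycans, and Pkhd1l1 were other genes of that set that rose, by 1.38, 1.24 and 0.78 on the log2 scale. Gsdme, a pore-forming gasdermin, went from 67.9 to 170 CPM on chow to 657 and 901 in H and HH, with 132 in CCH and 334 in HCH (2.77 ± 0.44, adjusted p = 0.00183). H and HH share a library set that 2 of the 3 chow libraries do not. With that set as a term Gsdme passed (adjusted p = 0.0358), and Krt19 (0.143), Nkain4 (0.0744), Efemp1 (0.0787), Wdr17 (0.0796), Mroh2a (0.0642), Chst4 (0.0751) and Pkhd1l1 (0.124) did not, each by adjusted p.

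The shares of junction and mesenchymal transition genes that passed were near the 10.6% of all genes. Of 15 junction and polarity genes tested none rose and 1, the desmosomal Dsp, fell (from at most 29.9 CPM, adjusted p = 0.0998 with library set as a term), with a median log2 fold change of -0.15. The tight-junction and polarity genes Tjp1, F11r and Pard3 had log2 fold changes of 0.01, 0.11 and -0.24. Of 21 genes of mesenchymal transition and TGF-beta targets tested, 1 rose and 1 fell, with a median of -0.06. Postn, a matricellular protein, rose from 2.27 to 14.9 CPM on chow to 43.6 and 30.9 in H and HH (2.39, adjusted p = 0.0121). Zeb2, a repressor of epithelial genes, fell (-1.53, adjusted p = 0.00582, and 0.103 with library set as a term), from 702 to 1344 CPM on chow to 337 and 379. Over all libraries Zeb2 did not overlap between the sets, at 723 to 1344 CPM in S019 and 337 to 702 in S075. Acta2, Zeb1 and Fn1 did not pass, with log2 fold changes of -0.30, -0.57 and 0.83.

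Matrix genes moved in both directions. Of 26 collagen and basement membrane genes tested 4 rose and 2 fell, beside 6.91% and 3.7% of all genes, with a median of -0.09 here and 0.05 over all 4 HFD libraries. The fibrillar collagen gene Col3a1 was at 1003, 963 and 1567 CPM on chow, 2797, 2507, 1596 and 2643 in H, HH, CCH and HCH and 1608 and 1733 after WL (1.12 ± 0.21, adjusted p = 0.00401). Col1a1 (1.26), Col1a2 (0.90) and Col6a1 (0.90) also rose, the last 2 not with library set as a term (adjusted p = 0.0707 and 0.0815), while the laminin genes Lama2 (-1.25) and Lamc1 (-0.79) fell. Dcn, the small proteoglycan decorin, was at 914 to 1240 CPM on chow and 2637 and 3198 in H and HH (1.43, adjusted p = 0.00174) and Lum, the proteoglycan lumican, at 7.39 to 14.9 and at 70.5 and 103 (3.09, adjusted p = 0.000289). Col1a1, Col3a1, Dcn and Lum are the members of the progenitor marker list that rose, and in the other nuclei Col3a1 was at 190 to 229 CPM on chow and 392 to 1053 on HFD. Mgp, an inhibitor of calcification, rose from 62.7 to 73.9 CPM to 411 and 565 (2.73, adjusted p = 0.000565). Prg4, the lubricating proteoglycan of joint and serous surfaces, went from 2.99 to 6.82 CPM to 40.4 and 66.8 (3.22, adjusted p = 0.000636), and Cd44, the hyaluronan receptor, from 26.0 to 46.6 to 106 and 103 (1.32, adjusted p = 0.00592, and 0.0592 with library set as a term). The hyaluronan synthase gene Has1 was at 10.0 to 78.4 CPM on chow and 43.6 and 40.2 in H and HH and did not pass (-0.14, adjusted p = 0.908).

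Genes of the IGF, BMP, WNT and FGF pathways follow. Igfbp6, which binds IGF2 preferentially, was at 327, 182 and 257 CPM on chow, 679, 690, 238 and 450 in H, HH, CCH and HCH and 71.2 and 126 in HC and HHC. H and HH lay above and HC and HHC below every chow library (HFD 1.35 ± 0.24, adjusted p = 0.00317, and 0.0592 with library set as a term). In the same list of 15 genes Igfbp7 rose (0.78, adjusted p = 0.0776 with library set as a term), while Foxo1, the insulin-regulated transcription factor, and Pik3r1, a regulatory subunit of PI3-kinase, fell (-0.93 and -1.01). Of 16 BMP, WNT and FGF genes tested 2 rose and 2 fell, beside 6.91% and 3.7% of all genes. Fgfr2, an FGF receptor of epithelia, went from 199 to 254 CPM to 538 and 567 (1.27, adjusted p = 0.00231) and Sfrp2, a WNT antagonist, from 26.9 to 49.9 to 166 and 78.0 (1.74, adjusted p = 0.00866). Bmper, a BMP modulator, and Fgf10 fell (-1.28 and -3.36), both from levels below those of other nuclei. With library set as a term Bmper was at -0.74 and did not pass (adjusted p = 0.165). Myocd, the coactivator of smooth muscle genes, was at 20.5, 1.998 and 14.9 CPM on chow, 142 and 164 in H and HH, 28.9 and 29.1 in CCH and HCH and 117 and 59.0 in HC and HHC (3.32 ± 0.44, adjusted p = 0.000672). In other nuclei Myocd was at 1.27 and 5.92 CPM in H and HH but at 28.9 in C and 73.0 in HC.

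Further genes of the largest rise were Ssr4, Ppib, Creg1, Emp3, Agrp and the antisense transcript Pard3bos1, with log2 fold changes from 2.73 to 3.33. Agrp did not pass with library set as a term (adjusted p = 0.0535). Ssr4 and Ppib encode proteins of the endoplasmic reticulum, and Creg1 a lysosomal glycoprotein. Ssr4 was at 7.99 to 18.2 CPM on chow, 108 and 109 in H and HH, 17.7 in CCH and 70.1 in HCH. Pard3bos1 lies opposite Pard3b, whose introns were counted too. Of 80 ribosomal protein genes tested 67 rose, with a median of 1.58, and this group was high in the other nuclei of H, HH and HCH as well. The 25 lysosomal genes had 18 that rose (median 1.90) and the 15 macrophage markers 11 that rose and 1, Mrc1, that fell (median 3.70), beside 6.91% higher and 3.7% lower of all genes. These 2 lists moved together with the macrophage RNA measured in these libraries.

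The genes of the largest fall were Cmss1, Lars2, Hif3a, Cavin1, Lzts2, Col6a5, Adam23, Mtfr1l, Fam124a and Adcy2, with log2 fold changes from -2.73 to -1.16. With library set as a term Cavin1, Adam23 and Fam124a passed and the other 7 did not, with Cmss1 at -0.35 (adjusted p = 0.680) and Lars2 at -1.23 (adjusted p = 0.223). Cmss1, Lars2 and Hif3a did not overlap between the library sets. Hif3a was at 61.8 to 93.9 CPM in S019 and at 23.1 to 48.3 in S075. Cmss1 was at 2234 to 4829 CPM in the 4 libraries of S019 and at 239 to 396 in the 5 of S075. Zbtb16, a zinc-finger factor that glucocorticoids induce, was at 1465, 1412 and 860 CPM on chow, 409, 508, 538 and 619 on HFD and 1118 and 811 after WL, so that every HFD library lay below every chow and WL library (-1.51 ± 0.28, adjusted p = 0.00367, and -1.33 with adjusted p = 0.0559 over 4 HFD libraries). In the other nuclei Zbtb16 was at 1341 to 2113 CPM on chow and 165 to 762 on HFD. Tsc22d3, the glucocorticoid-induced leucine zipper, fell as well (-1.39, adjusted p = 0.0790 with library set as a term), and the other 10 genes of that list did not pass, with Fkbp5 at -0.90 and Nr3c1, the receptor, at -0.59. Of 21 fatty acid oxidation and PPAR genes 1 rose (Plin2) and 4 fell (Ppara, Pparg and Ehhadh among them), and of 16 lipid and sterol synthesis genes 3 fell (Srebf1, Acaca, Scd1), beside 6.91% higher and 3.7% lower of all genes. In the same libraries 8 of 10 adipocyte markers fell. None of 11 retinoic acid and none of 4 cell cycle genes passed, and 2 of 17 immediate early genes, Atf3 and Ier3, rose, beside 10.6% of all genes. Of 17 interferon and MHC class I genes 2 rose and 1 fell, and of 17 clock genes 1, Cry2, fell.

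**Figure D5:**
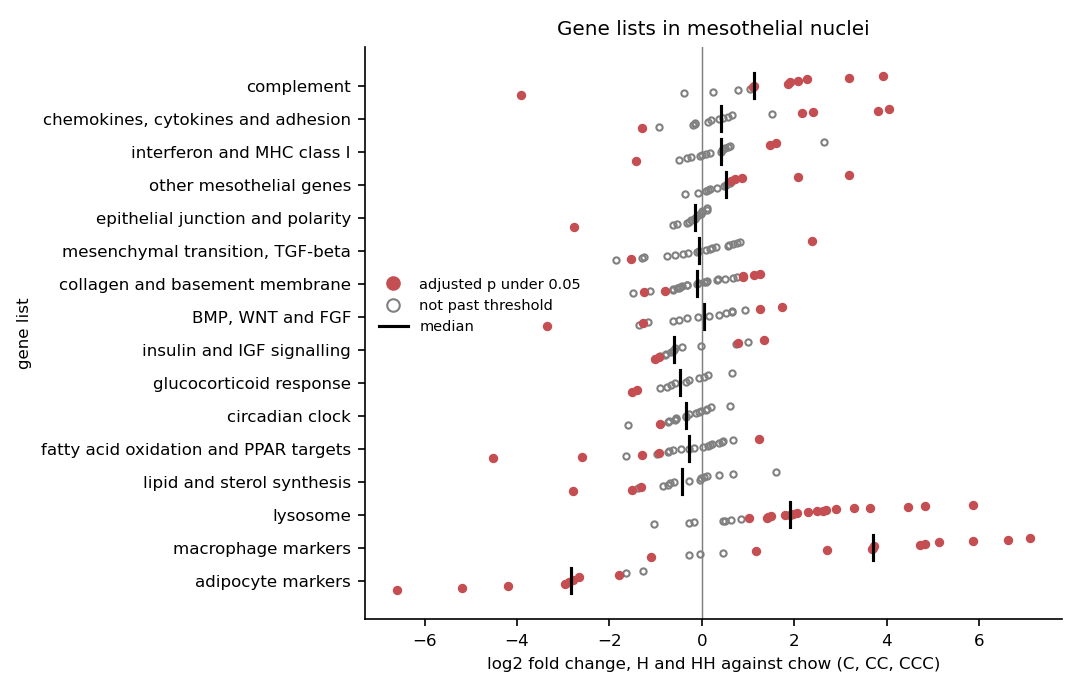
Log2 fold changes of listed genes in mesothelial nuclei, H and HH against chow. Each point is a gene, filled when its adjusted p was under 0.05, and the black line is the median of a list. The complement median is 1.14, the junction median -0.15, and the lists of macrophage and adipocyte markers reach furthest to the right (median 3.70) and left (median -2.83).

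CCH and HCH were both sampled after 4 weeks of HFD at 30 weeks of age and differed in the earlier HFD and chow periods of HCH. With 1 library each there was no test, and ratios carry exact conditional 95% intervals for counting error only. Of the 3368 genes of at least 20 CPM and at least the level of other nuclei, the interval excluded 1 for 615 higher (18.3%) and 682 lower (20.2%) in HCH. C3 was 2.91-fold (2.67 to 3.17) higher in HCH than in CCH, Slpi 4.68-fold (4.13 to 5.32), Serping1 2.49-fold (2.18 to 2.85), Cfb 2.35-fold (1.90 to 2.93) and Mgp 3.39-fold (2.79 to 4.14). Igfbp6 was 1.89-fold (1.68 to 2.13) and Col3a1 1.66-fold (1.58 to 1.74) higher. In HCH all of these lay below the level in HH, apart from Col3a1. Myocd had a ratio of 1.01 (0.667 to 1.52), and Cavin1 had a ratio of 1.04 (0.852 to 1.27).

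The largest ratios by the fixed rule were those of other genes. Grm3, a glutamate receptor, was at 87.4 CPM in HCH and at 5.99 to 19.7 in all other libraries (7.10-fold, 4.55 to 11.6). It met the limit of 20 mean CPM only through HCH, so its place here is a description. Abcg8, a sterol transporter, was at 22.3 CPM against 3.75 in CCH. The other 3, Rpl39, Rps4x and Rpl36, were ribosomal protein genes, the group that was at 12170 CPM in HCH and 3547 in CCH. Lower in HCH were Ptgs2, the inducible cyclooxygenase, at 6.20 CPM against 58.4 (0.106-fold, 0.0496 to 0.203), Dusp5, Fbxo33, Syvn1 and Kcnd2. Ptgs2 was also high in C (71.6 CPM) and HC (56.1 CPM), each from another state, and at most 11.4 CPM in the remaining libraries.

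After WL the levels of C3, Cfb and Slpi lay among or below those of chow, apart from Slpi and Cfb in HHC. Of other genes that rose in H and HH, Serping1, Gsdme, Wdr17 and Creg1 lay above every chow library in HHC. Igfbp6, Ssr4 and Lcn2 did not. Gsdme was at 82.0 and 410 CPM in HC and HHC, against up to 170 on chow, and Creg1 at 43.2 and 163, against up to 40.3. Over 3 states no gene of 11420 differed between the 2 WL and the 3 chow libraries by edgeR (0%), with 1132 at an unadjusted p under 0.05, and DESeq2 called 43. The largest values among genes of at least 20 mean CPM and at least the level of other nuclei were those of Pard3bos1 (2.91), Myocd (2.63), Trank1 (-2.51), Lgals7 (-2.36) and Vat1l (-2.20). Trank1 was at 17.6, 32.0 and 53.7 CPM in C, CC and CCC and had 4 and 2 UMIs in HC and HHC. It met the limit of 20 mean CPM only through its chow levels, so its place is a description. HC and HHC lay at 341 and 654 CPM for C3 and at 41.0 and 103 for Cfb, against chow libraries at up to 678 and 93.8. Set against the chow library of the same age and set, C3 was 1.57-fold (1.22 to 2.02) higher in HC than in CC and 2.17-fold (1.75 to 2.72) higher in HHC than in CCC. Slpi was 0.540-fold (0.263 to 1.06) in HC and 2.11-fold (1.497 to 3.04) in HHC. These intervals hold counting error of a single pair of libraries.

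With CCH and HCH as states of their own, 100 genes differed between WL and chow (0.805%), 76 higher (0.612%) and 24 lower (0.193%), and 9 of 15 macrophage markers and 9 of 25 lysosomal genes were among the higher ones. Among the 3368 well-expressed genes 10 passed (0.297%), 5 higher (0.148%) and 5 lower (0.148%). Ephb1, an Eph receptor of cell contact, was at 59.7, 47.9 and 68.7 CPM in C, CC and CCC, 126, 147, 48.7 and 83.7 in H, HH, CCH and HCH and 211 and 213 in HC and HHC (WL 1.91, adjusted p = 0.00168). The WL libraries were above all others for Ephb1, while other nuclei held 10.8 CPM or less. Kalrn, a guanine nucleotide exchange factor, was at 98.5 to 156 CPM on chow and 429 and 437 after WL (1.82, adjusted p = 0.00388), and Tmem108 at 94.3 to 146 and at 335 and 264 (1.35, adjusted p = 0.0335). Pard3bos1 and Myocd were the other 2 that were higher. The 8 smooth muscle and pericyte markers summed to 529 CPM in mesothelial nuclei of HC, where Myocd was at 117 CPM, against 125 to 236 on chow and 102 in HHC, and to 1044 in the other nuclei of HC. Their part in the Myocd value was not tested. Thbd, the anticoagulant receptor thrombomodulin, fell from 168 to 344 CPM on chow to 73.4 and 92.6 (-1.54, adjusted p = 0.0287), with 167 to 232 on HFD. Endothelial cells also express Thbd, and the 10 endothelial markers summed in mesothelial nuclei to 230 to 262 CPM on chow, 138 to 223 on HFD and 199 and 138 in HC and HHC. Of these 10 markers 7 were above 0 in every library, and of the 8 smooth muscle markers 6 were. The part of endothelial RNA in the Thbd value was not tested. Lgals7, a galectin of stratified epithelia, fell to 6.48 and 7.02 CPM from 24.0 to 47.7 (-2.37, adjusted p = 0.0335), on 3 and 5 UMIs. Vat1l (-2.16), Igfbp6 (-1.32, adjusted p = 0.0450) and Cavin1 (-1.38, adjusted p = 0.0345) completed these. WL libraries came from set S019 and 2 of the 3 chow libraries did too, and with the set as a term 37 genes passed, Ephb1 (1.93, adjusted p = 0.0174), Kalrn (2.04, adjusted p = 0.0174), Vat1l and Myocd among them. Tmem108 (adjusted p = 0.137), Pard3bos1 (0.205), Lgals7 (0.158), Thbd (0.0649), Igfbp6 (0.141) and Cavin1 (0.0711) did not pass with it. With that term the change is that of HC and HHC against CC and CCC. Myocd had only 1 UMI in CC and 5 UMIs in CCC.

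Between the WL and the 4 HFD libraries 16 of 11420 genes differed (0.14%), 13 higher after WL (0.114%) and 3 lower (0.0263%), and 5 of the 3368 well-expressed genes did (0.148%), 2 higher (0.0594%) and 3 lower (0.0891%). Mmp23, a membrane-bound protease, was at 15.1 and 19.7 CPM after WL and 83.5 to 158 on HFD, with 30.0 to 73.3 on chow. Tm4sf1, a tetraspanin-like protein, was at 25.9 and 25.3 CPM after WL and 61.6 to 117 on HFD, and Prss23, a serine protease, at 132 and 145 and at 338 to 544. For the 3 genes WL lay below HFD and below every chow library. Cmss1 and Lars2 were the well-expressed genes that were higher. HFD and WL never shared a library set, so state and set cannot be told apart here, and no gene passed with the set as a term. With CCH and HCH as states of their own 464 of 12423 genes differed between WL and H and HH (3.74%), 162 higher after WL (1.3%) and 302 lower (2.43%), and of the 3368 genes 198 did (5.88%), 23 higher (0.683%) and 175 lower (5.2%). Slpi, Lcn2, Mmp23, Sfrp2 and Ssr4 were among the 10 genes with the largest lower values after WL. Lcn2 met the limit of 20 mean CPM only through H and HH, so its place is a description. None of the 464 passed with the set as a term, where 0 genes did.

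The HFD change in mesothelial nuclei was tested against that in progenitor nuclei (Pdgfra, 6251 nuclei) and in endothelial nuclei (Cdh5 or Ptprb, 3394 nuclei). All came from the same libraries. The fits of these differences, here and below, had no term for library set by cell kind. HFD libraries were all of set S075 and 2 of the 3 chow libraries of S019. A set difference that only mesothelial nuclei have was therefore not separated from the diet change. The comparison nuclei held no UMI of Adgre1, Mctp1 or Plin4, while mesothelial nuclei could hold UMIs of 1 exclusion gene. Adipocyte and macrophage RNA could thus enter them differently, and its part was not tested. Over 3 states 58 of 14216 genes differed from progenitors (0.408%), 36 with the higher change in mesothelial nuclei (0.253%) and 22 with the lower (0.155%). Against endothelial nuclei 4 of 12075 differed (0.0331%), 3 higher (0.0248%) and 1 lower (0.00828%). Sox6, a transcription factor of mesenchymal cells, stayed between 1526 and 2098 CPM in all mesothelial libraries, while in progenitor nuclei it was at 110 to 318 CPM on chow and 12.9 to 68.8 on HFD. The difference of the 2 log2 changes was 2.66 (adjusted p = 0.0110). Lrp2, the endocytic receptor megalin, was at 114 to 140 CPM on chow and 137 to 266 on HFD in mesothelial nuclei and at 28.5 to 77.7 and 5.09 to 23.5 in progenitors (2.23, adjusted p = 0.00638). Myocd in mesothelial nuclei was at 1.998 to 20.5 CPM on chow, 142 and 164 in H and HH and 28.9 and 29.1 in CCH and HCH. In progenitor nuclei of the HFD libraries it was at most 1.70 CPM (difference 5.41, adjusted p = 0.00638). The 5.41 includes the change in progenitor nuclei, where Myocd was low on HFD. For Zeb2 the difference was -1.10 (adjusted p = 0.0294), with progenitors at 1773 to 2109 CPM on chow and HFD. In mesothelial nuclei Zeb2 was at 723 to 1344 CPM in the S019 libraries and at 337 to 702 in those of S075.

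With H and HH as HFD, chosen after the data were seen, 547 of 15222 genes differed from progenitors (3.59%), 299 higher in mesothelial nuclei (1.96%) and 248 lower (1.63%). Against endothelial nuclei 206 of 13058 did (1.58%), 136 higher (1.04%) and 70 lower (0.536%). C3 rose more in mesothelial than in progenitor nuclei, by 0.92 on the log2 scale (adjusted p = 0.000598). Wdr17 (1.71), Gsdme (1.28), Dcn (0.87) and Pkhd1l1 (1.38) also rose more. Progenitor nuclei had the larger rise of Col1a1 (-1.22) and Col3a1 (-0.92), with Col3a1 at 389 to 703.3 CPM on chow and 3272 and 1558 in H and HH. For Fgf10 the changes went in opposite directions, down in mesothelial nuclei and from 89.3 to 148 up to 546 and 291 CPM in progenitors. For Slpi, Serping1 and C1ra the difference from progenitors did not pass (-0.20, 0.58 and 0.11, adjusted p = 0.953, 0.165 and 0.972), nor did that of C3, Slpi or Cfb from endothelial nuclei. Between WL and chow Vegfc, a lymphatic growth factor, was the only gene over 3 states whose change differed from that in progenitors (0.00703%), and none differed from endothelial nuclei by edgeR (733 at an unadjusted p under 0.05). With CCH and HCH apart, 147 differed from progenitors (0.966%), 80 higher (0.526%) and 67 lower (0.44%), and 4 from endothelial nuclei, all higher (0.0306%). Vegfc was at 149 and 153 CPM in HC and HHC and 45.9 to 102 on chow in mesothelial nuclei and at 86.3 and 96.7 and 159 to 266 in progenitors (2.16, adjusted p = 0.0290).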

How the data were processed

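Nuclei were isolated from snap-frozen epiAT and sequenced with 10x 3′ chemistry. Per the methods, the authors aligned reads with Cell Ranger 6.1.2 to mm10, introns included, and used Seurat 4.1.0, scDblFinder and SoupX, without correcting for ambient RNA. The deposited values are raw UMI counts per gene and barcode in 9 matrices, with no cell annotation, so mesothelial nuclei were found anew by the rule given above. The limits on genes and UMIs are those of the study. No mesothelial nucleus was removed as a doublet in the main analysis. Intron reads and ambient RNA both count towards a gene's level.

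Counts were summed over mesothelial nuclei per library, without mitochondrial genes and Malat1, and given as CPM of that sum. Genes were tested with edgeR 4.0.16 (TMM, filterByExpr, quasi-likelihood test, Benjamini-Hochberg over all genes tested, threshold 0.05) in R 4.3.3, with diet state as the term and all 9 libraries. The 14 rule genes had no test. The study's rank test over cells was not used, since cells of 1 library are not replicates. The difference between cell kinds was an interaction term with library as a block, without a term for library set by cell kind. Summed UMIs per library give the depth (334971 to 2037577), and intervals cover counting error only. The scripts were tested on simulated counts with known changes. At a log2 change of 1 the main fit recovered 16 of 97 changed genes (16.5%). The fit with H and HH as HFD recovered 7 of 102 (6.86%). At a log2 change of 2 they recovered 75 of 95 (78.9%) and 72 of 95 (75.8%). Beside these, false calls numbered 10 in the main fit and 13 with H and HH as HFD. A gene that did not pass was therefore not shown to be unchanged. Alternatives were DESeq2 1.42.0, RLE factors, no filter, library set as a term, other rules for nuclei, Scrublet (scanpy 1.11.5) and leaving out each library.

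The members, gene lists and tests were chosen with earlier results of these data known, so nothing here is independent of them. Named genes were, for each state comparison, the 10 largest changes in each direction past the threshold among genes of at least 20 CPM and at least the level of other nuclei, or the 5 largest values where fewer than 5 passed. Added to these were list members that passed and up to 4 others a list, the 5 largest HCH to CCH ratios each way, the 20 genes highest over other nuclei, and markers that moved with a result. Gene positions are from the GENCODE annotation of GRCm38. The list gene Tmem2 is not used here, and some list genes that passed are not reported here.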

Additional observations from a re-analysis of the deposited data

Results flagged for a closer look

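Among 66 items compared over the 4 HFD libraries, named genes and the share of mesothelial nuclei, 4 had a library far from the other 3. Chance gives about 1 in 20 for items not chosen by their values. Most of these genes were chosen by a fit that set CCH apart, so that rate does not hold here. The gap divided by the range was 0.921 for Cd44, 0.947 for Foxo1 and 0.907 for Thbd, with CCH apart, and 0.878 for Pkhd1l1, with H apart.

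The HFD change over 3 states differed from that in endothelial nuclei by 1.88 on the log2 scale for Bmpr1a and 2.16 for Lrp2. It differed from that in progenitor nuclei by 2.23 for Lrp2, 5.41 for Myocd, 2.66 for Sox6, 1.88 for Tmem108 and -1.10 for Zeb2. The WL change of Vegfc differed from that in progenitor nuclei by 2.16. None of the fits of differences between cell kinds had a term for library set by cell kind. With H and HH as HFD the differences from progenitor nuclei were -1.41 for Adam23, 0.92 for C3, -1.22 for Col1a1, -0.92 for Col3a1, -1.29 for Col6a5, 0.87 for Dcn, -4.90 for Fgf10, 1.28 for Gsdme, 1.38 for Pkhd1l1 and 1.71 for Wdr17.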

How the results depend on the processing

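The number of genes past the threshold depended strongly on which libraries stood for HFD and on the rule for nuclei. Between HFD and chow 10 genes passed, and 1319 did with CCH and HCH as states of their own, 476 with DESeq2, 2 with RLE factors, 1341 without a filter, and 0 with library set as a term, with at least 4 rule markers, without any exclusion gene or with the highest Scrublet scores removed. Leaving out 1 library gave 0 to 1166 genes, the highest without CCH. With H and HH as HFD the 1319 genes became 595 with library set as a term and 816 without any exclusion gene, and 323 (without HH) to 1095 with a chow library, H or HH left out. Between WL and chow the 0 genes became 100 with CCH and HCH apart, 43 with DESeq2, 461 without a filter and 16 in set S019 alone, and 0 to 62 (without CCH) with a library left out. The 100 became 37 with library set as a term. Between WL and HFD the 16 genes became 464 with CCH and HCH apart, 276 with DESeq2, 875 without a filter, 28 with at least 4 rule markers and 32 with Scrublet scores removed. They became 0 with library set as a term in either fit, and 0 to 490 (without CCH) with a library left out. Taking H and HH as HFD changed the genes that differed from endothelial nuclei from 4 to 206 on HFD and from 0 to 4 after WL, and from progenitor nuclei from 58 to 547 and from 1 to 147. The cause was not tested. The 55 genes named for HFD kept their direction in each alternative. They were chosen from these libraries, which the alternatives use again, so that was largely fixed in advance. Of the 55, 2 passed over all 4 HFD libraries and 1 with RLE factors. With at least 4 rule markers or without any exclusion gene 0 passed, while 32 did with DESeq2 and 48 without a filter. Of the 1319 genes, 2 of 1295 tested turned over all 4 HFD libraries, as did the collagen median (-0.09 to 0.05). The rules on markers and exclusion genes with H and HH as HFD were chosen after seeing the data. No paired analysis was run. The labels give no replicate numbers, only 1 library per group. Some libraries match in age, and a fit with age as a term was not run. With library set as a term, the change between HFD and chow rests on C as its only chow library. Depth limits CC, CCC and HC most.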
